A study of Mus musculus with 6 samples.

Results

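Imprinted genes, those read mainly from the copy inherited from one parent, were followed in mouse embryonic fibroblasts lacking beta-actin and in wild-type fibroblasts, all held in adipogenic medium. The set was 45 genes out of the 46603 gene identifiers in the count files, found by symbol through the Ensembl identifiers and sorted into 19 imprinted domains, 14 with more than 1 listed gene and 5 with 1. By textbook assignment 21 are expressed from the maternal copy and 24 from the paternal copy. RNA of 3 wild-type (WT) and 3 beta-actin knockout (KO, Actb-/-) samples was sequenced. All 6 were fibroblasts of strain BALB/c, taken from embryos of 10.5 days and kept for 6 days in growth medium with insulin, dexamethasone, 3-isobutyl-1-methylxanthine and ascorbic acid, a mixture used to drive fibroblasts towards fat cells. The cells of both genotypes were obtained from another laboratory, and the labels do not say how many embryos, clones or cultures stand behind the 3 samples of a genotype. The p-values below therefore measure the spread between these samples, which may be technical. An effect of the missing actin and a difference between the cell stocks it was compared in cannot be told apart.

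An imprinted domain is a group of neighbouring genes under an imprinting control region, a stretch of DNA methylated on the copy from 1 parent alone since the egg or sperm. That mark decides which copy is read, often through a long noncoding RNA that silences its neighbours on the same chromosome or through the insulator protein CTCF. Many paternally expressed genes promote growth of the embryo and placenta and many maternally expressed genes restrain it, and several, among them Dlk1, Mest and Grb10, are studied for their roles in fat tissue. The imprint of some of the genes is limited to placenta or brain, and in other tissues both copies are read. The counts hold no allele, so which parental copy was read was not measured here, and maternal and paternal below are background.

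The libraries held 26955708 to 38619711 counted reads. Actb itself fell from 1875 ± 47.9 (SD, n = 3) reads per 1000000 of the TMM-scaled library size, the unit called CPM below, in WT to 39.9 ± 25.9 (n = 3) in KO, with 53894 to 60582 reads in the WT libraries and 276, 1988 and 1850 in KO replicates 1 to 3. KO replicate 1 stood apart from its group: its median absolute log2 difference was 0.44 from KO replicate 2 and 0.419 from KO replicate 3, against 0.121 between those 2 and 0.15 to 0.208 among the WT libraries. The 10 fibroblast markers summed to 2984 to 3713 CPM in WT and 7009 to 9673 in KO, and 8 of 10 were higher in KO at an adjusted p under 0.05. In WT, Fn1 (2109 CPM), Vim (605) and Col1a1 (560) had the highest means of the list, while Col1a2, Thy1 and Lum were near 0. The 8 adipocyte markers summed to 27.3 to 36.2 CPM in WT and 177 to 285 in KO, a sum carried by Lpl (2.74 and 142 CPM, adjusted p = 0.000124) and Fabp4 (7.55 and 44.8, adjusted p = 0.0686). In the same list Pparg rose (0.73, adjusted p = 0.0205), Cebpa fell from 5.59 to 0.29 CPM (log2 fold change -4.20, adjusted p = 0.000813), Adipoq and Plin1 had 0 to 3 reads a library and Lep had 0. Whether these differences bear on the imprinted genes was not tested. In bulk RNA, fewer cells of a type and less RNA per cell cannot be told apart.

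Of the 45 genes, 37 have a promoter window in the RefSeq table (GRCm38.p6), and the 8 without are H19, Rtl1, Peg10, Sgce, Nespas, Impact, Peg13 and Trappc9. The 6 windows printed here are the 250 bases upstream of the start of genes on which the results turn: 2 long noncoding RNAs that rose, Kcnq1ot1 and Airn, and 4 protein-coding genes that fell, Nnat, Phlda2, Plagl1 and Slc38a4. Each reads 5′ to 3′ on the strand of its gene, and capitals mark CpG, the base pair step that carries DNA methylation.
Kcnq1ot1, chr7:143296548-143296797, - strand: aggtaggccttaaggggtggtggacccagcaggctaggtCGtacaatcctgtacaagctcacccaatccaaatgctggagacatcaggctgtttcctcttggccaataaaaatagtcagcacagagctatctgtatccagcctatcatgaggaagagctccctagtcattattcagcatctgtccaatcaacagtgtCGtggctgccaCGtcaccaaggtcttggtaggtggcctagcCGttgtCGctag
Airn, chr17:12741061-12741310, + strand: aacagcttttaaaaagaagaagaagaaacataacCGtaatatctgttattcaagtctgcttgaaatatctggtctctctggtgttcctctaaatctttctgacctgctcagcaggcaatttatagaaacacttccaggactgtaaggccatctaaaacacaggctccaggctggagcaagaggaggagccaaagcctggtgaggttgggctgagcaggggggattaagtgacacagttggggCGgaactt
Nnat, chr2:157559828-157560077, + strand: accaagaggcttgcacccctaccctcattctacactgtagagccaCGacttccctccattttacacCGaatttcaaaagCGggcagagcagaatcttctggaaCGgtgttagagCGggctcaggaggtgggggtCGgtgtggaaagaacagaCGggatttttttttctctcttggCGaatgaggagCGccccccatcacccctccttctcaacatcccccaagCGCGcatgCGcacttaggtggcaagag
Phlda2, chr7:143502525-143502774, - strand: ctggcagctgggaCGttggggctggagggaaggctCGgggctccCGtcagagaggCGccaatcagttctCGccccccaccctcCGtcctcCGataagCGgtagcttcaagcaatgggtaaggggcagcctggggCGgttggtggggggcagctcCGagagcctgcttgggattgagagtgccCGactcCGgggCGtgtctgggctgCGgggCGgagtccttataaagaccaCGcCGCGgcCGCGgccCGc
Plagl1, chr10:13090582-13090831, + strand: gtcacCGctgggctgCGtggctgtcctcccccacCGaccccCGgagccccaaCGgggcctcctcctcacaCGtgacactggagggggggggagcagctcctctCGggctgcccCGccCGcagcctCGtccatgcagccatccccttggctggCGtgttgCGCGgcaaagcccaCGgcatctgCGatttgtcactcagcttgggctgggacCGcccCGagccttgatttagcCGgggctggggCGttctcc
Slc38a4, chr15:97055957-97056206, - strand: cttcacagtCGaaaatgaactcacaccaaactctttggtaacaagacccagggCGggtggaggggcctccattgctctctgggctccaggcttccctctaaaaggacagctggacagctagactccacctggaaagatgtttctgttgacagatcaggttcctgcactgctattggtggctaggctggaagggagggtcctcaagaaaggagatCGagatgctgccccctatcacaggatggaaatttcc
The windows held 21 CpG at Phlda2, 19 at Plagl1, 12 at Nnat, 5 at Kcnq1ot1, 3 at Slc38a4 and 2 at Airn, against a median of 6 and quartiles of 2 and 16 over all 32851 windows of that length. The genes that rose and the genes that fell thus both include windows of low CpG number. Over the 56 windows of the imprinted genes the median was 10. The letters TGCCGC, the core bound by the imprint-keeping protein ZFP57 when methylated, stood on either strand in 9 of these 56 windows (16.1%), belonging to 8 genes, against 8.68% of all windows. Of the 9, 2 are Mest windows that overlap almost wholly and hold the same matches. Among the 6 printed, Plagl1 held it. TGCCGC itself contains a CpG, and the windows compared were not matched for CpG number, so the shares are a description only. The letters CCAAT, searched on both strands, occurred 3 times before Kcnq1ot1, whose window holds no TGCCGC that could overlap them, a number reached by 2.79% of all windows, while 33.8% held at least 1. A match of letters is a description of the window and not a bound site.

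Across the domains, 31 of the 45 genes passed the filter on low counts and were tested, and 15 of these changed. Levels of 6 were higher in KO (Airn, Kcnq1ot1, Meg3, Ppp1r9a, Copg2 and Grb10) and levels of 9 were lower (Igf2, Phlda2, Slc22a18, Sgce, Plagl1, Nnat, Blcap, Impact and Slc38a4), by edgeR's quasi-likelihood test with a Benjamini-Hochberg adjusted p under 0.05. Of all 15009 genes tested, 28.3% changed, 13.8% upward (2074) and 14.5% downward (2181). Scaled by library totals, that split was 1351 upward and 3347 downward, with the median of all genes moved from 0.01 to -0.19 on the log2 scale. The median log2 fold change of the 31 genes was -0.18. CPM ranges of WT and KO did not overlap for 19 of the 31, 8 higher and 11 lower in KO, against 49.6% of all tested genes (23.8% higher, 25.8% lower). Among the maternally expressed genes, 4 of 15 tested were higher and 3 lower, with a median of 0.06. For the paternally expressed genes, 2 of 16 tested were higher and 6 lower, with a median of -0.70. Without KO replicate 1, 34 were tested, 9 were higher and 12 lower, against 42.3% of all genes then tested (19.9% higher, 22.4% lower), so more was called in both directions without it. In that fit 6 maternally expressed genes were higher and 5 lower, and 3 paternally expressed genes were higher and 7 lower.

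**Figure D1:**
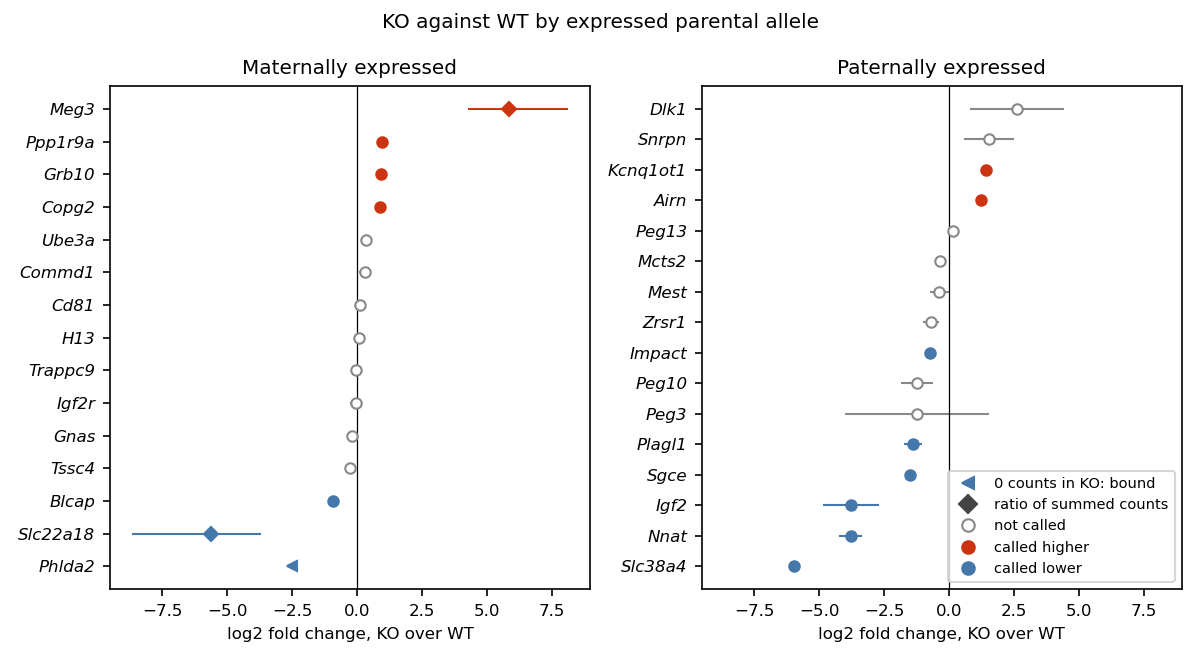
Log2 fold change of KO against WT for the tested imprinted genes, split by the parental copy that textbooks give as expressed. Values run from Slc38a4 at -5.98 upward, with SE as bars, and genes of few or no reads in a group drawn as a count ratio with its 95% interval or as a bound.

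The Kcnq1 domain, at the distal end of chromosome 7, held a noncoding RNA that rose and protein-coding neighbours that fell. Kcnq1ot1 (ENSMUSG00000101609, GRCm38 chr7:143203458-143296549) is the long noncoding RNA of the paternal copy that silences neighbouring genes in cis. Its counts were 205, 256 and 287 in WT and 596, 770 and 723 in KO. The lowest KO library was above the highest WT library, and the level rose from 8.06 ± 1.62 to 21.6 ± 1.71 CPM (log2 fold change 1.42, SE 0.18, adjusted p = 0.00169). It is annotated as 1 exon of 93092 bases inside Kcnq1 on the opposite strand. Per kilobase of exon its level was low, 0.0866 CPM in WT and 0.232 in KO. Reads of the overlapping genes cannot be told apart there without strand. Kcnq1, a potassium channel subunit, had 2, 2 and 1 reads in WT and 0, 2 and 0 in KO. Phlda2 (ENSMUSG00000010760), a pleckstrin homology protein that restrains placental growth, had 12, 20 and 18 reads in WT and 0 in each KO library. All 3 WT libraries thus showed it and no KO library did, a level at least 5.70-fold lower in KO against the floor of 3 counts per library (adjusted p = 0.00311). Slc22a18 (ENSMUSG00000000154), a membrane transporter, had 31, 53 and 10 reads in WT and 0, 2 and 0 in KO. The WT-to-KO ratio of its summed counts, scaled by library size, was 48.9, with a 95% counting interval of 13.2 to 410 (adjusted p = 0.00678).

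Cdkn1c, the maternally expressed cell cycle inhibitor p57, lies in the same stretch and belongs to the wider list of imprinted genes below. It had 1167, 1176 and 1722 reads in WT and 0, 0 and 2 in KO, a ratio of 2117 with a counting interval of 586 to 17485 (adjusted p = 3.28e-05). Ascl2, a transcription factor of the trophoblast, was below the filter with 8, 11 and 13 reads in WT and 0, 1 and 0 in KO, a ratio of 33.3 (5.57 to 1357). These 4 genes were at or near 0 in every KO library and present in every WT library. On the other flank, Cd81, a tetraspanin, had 5288, 6125 and 4906 reads in WT and 5134, 6639 and 6715 in KO, and did not pass the test (log2 fold change 0.13, adjusted p = 0.428). Tssc4, a spliceosome assembly factor, did not pass either (-0.26, adjusted p = 0.321). Measured from the start of Kcnq1ot1, Tssc4 and Cd81 start at -227 and -244 kb, and Cdkn1c, Slc22a18 and Phlda2 start at 165, 177 and 207 kb on the other side. Beyond them Nap1l4 at 253 kb (0.14, adjusted p = 0.456) and Cars at 304 kb (0.02, adjusted p = 0.949) did not pass the test. The lowered genes that were tested thus sat together, with Kcnq1ot1 on one side and Nap1l4 and Cars on the other, while Ascl2 starts at -327 kb, beyond Cd81. Trophoblast markers, which share placental expression with Ascl2 and Phlda2, summed to 4.86 to 10.6 CPM in WT and 1.65 to 5.49 in KO. Prl2c2 had the highest mean of them and did not pass (4.43 and 2.33 CPM, adjusted p = 0.383). Eomes fell from 2.16 to 0.36 CPM (-2.54, adjusted p = 0.0121). Syna was higher in KO without passing (0.364 and 0.524 CPM, adjusted p = 0.354). Tpbpa had 0 reads in all libraries, and the part of these markers in the result was not tested.

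**Figure D2:**
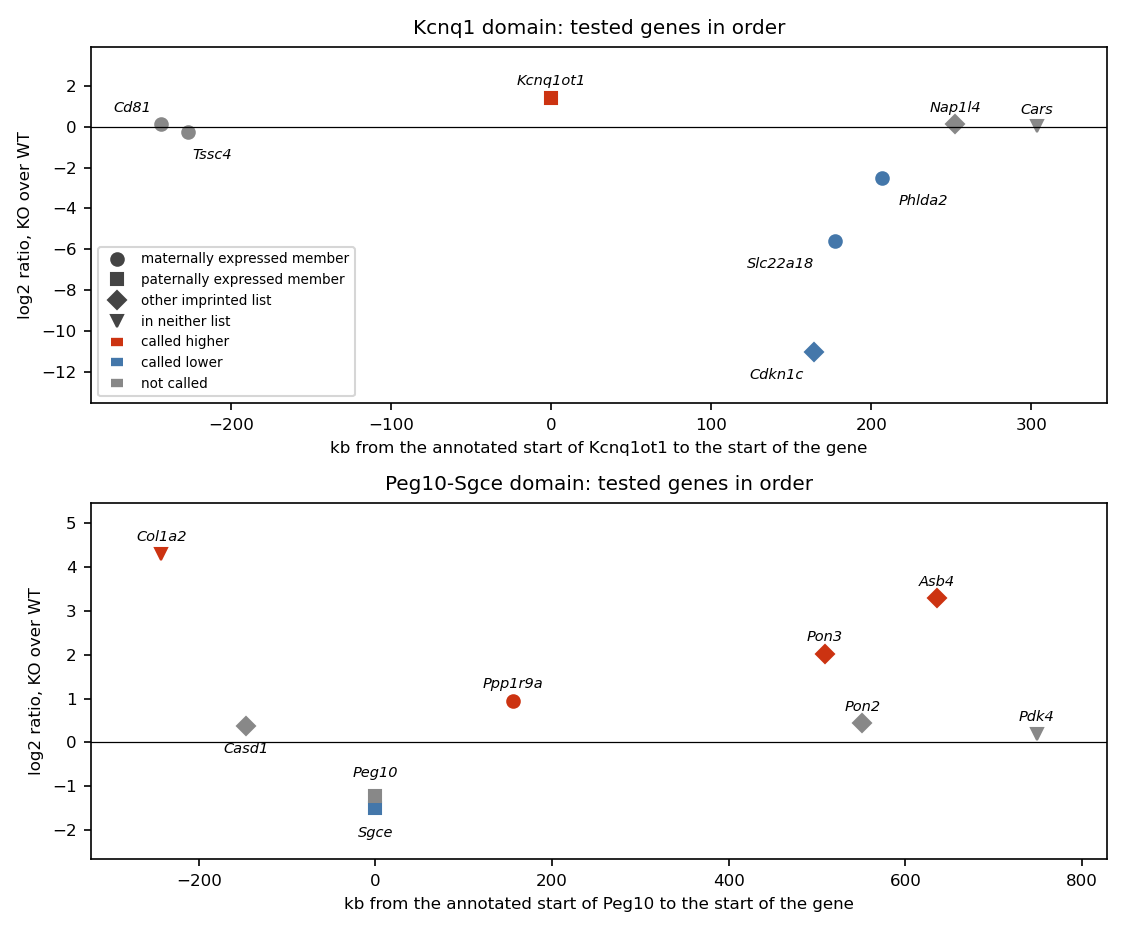
Log2 fold change of genes in chromosome order around Kcnq1ot1 and around Peg10, by distance in kb between annotated starts, with Phlda2 at its bound and Slc22a18 and Cdkn1c as count ratios. Around Kcnq1ot1 the genes at 165 to 207 kb are low in KO, while Nap1l4 and Cars beyond them and Cd81 and Tssc4 on the other side lie near 0.

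Igf2, the fetal growth factor expressed from the paternal copy, fell, and its maternally expressed neighbour H19 was barely read. Igf2 (ENSMUSG00000048583, chr7:142650766-142666816) had 552, 211 and 335 reads in WT and 55, 14 and 7 in KO. The groups did not overlap, KO replicate 1 held the most of the KO libraries, and the level fell from 11.8 ± 5.37 to 0.89 ± 1.02 CPM (log2 fold change -3.78, SE 1.08, adjusted p = 0.0111). The 2 KO libraries other than replicate 1 gave -5.28. H19, the noncoding RNA that shares the control region with Igf2, had 20, 12 and 3 reads in WT and 2, 0 and 0 in KO, below the filter. Its WT-to-KO ratio was 18.2 with a counting interval of 4.68 to 156. Both genes of a domain in which they are read from opposite parental copies were thus lower in count in KO.

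Among the genes that act on IGF2 or on its locus, Igf2r was not called, its antisense RNA Airn and the adaptor Grb10 rose, and Plagl1 fell. Igf2r (ENSMUSG00000023830), the mannose 6-phosphate receptor that takes IGF2 to the lysosome, had 3381, 3559 and 4210 reads in WT and 3880, 3360 and 3819 in KO. The groups overlapped (120 ± 19.3 and 116 ± 25.5 CPM, log2 fold change -0.05, adjusted p = 0.876). Airn (ENSMUSG00000078247), the paternal antisense RNA whose transcription through Igf2r silences it, had 223, 252 and 292 reads in WT and 489, 733 and 636 in KO. Every KO library was above every WT library, and Airn rose from 8.26 ± 1.46 to 19.1 ± 2.32 CPM (1.21, SE 0.17, adjusted p = 0.00325). Of Airn's exons, 3.17% of bases lie in the Igf2r gene body and 20.6% in that of Mas1, so reads of overlapping genes cannot be told apart without strand. Slc22a3, an organic cation transporter also silenced by Airn in placenta, had 1 read over the 6 libraries together. Grb10 (ENSMUSG00000020176), an adaptor that dampens insulin and IGF receptor signals, had 4503, 3498 and 4223 reads in WT and 5281, 9194 and 9850 in KO. KO replicate 1 was the lowest of the KO libraries, the groups did not overlap, and the level rose from 131 ± 18.6 to 246 ± 41.6 CPM (0.91, SE 0.19, adjusted p = 0.00686). Ddc, its neighbour, had 0 to 6 reads a library. Plagl1 (ENSMUSG00000019817), the zinc finger factor ZAC1, known as a regulator of other imprinted genes including Igf2 and H19, had 1309, 1048 and 1483 reads in WT and 529, 584 and 364 in KO. All KO libraries were below all WT libraries, and Plagl1 fell from 41.4 ± 8.57 to 15.7 ± 5.18 CPM (-1.40, SE 0.35, adjusted p = 0.00872).

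The Dlk1-Meg3 domain on chromosome 12 was scarcely read in WT and variable in KO. Meg3 (ENSMUSG00000021268), the maternal noncoding RNA at its centre, had 0, 1 and 2 reads in WT and 14, 148 and 16 in KO. KO replicate 2 held most of them, the groups did not overlap, and the KO-to-WT ratio was 57.0 with a counting interval of 19.2 to 279 (adjusted p = 0.0183). Without WT replicates 1, 2 or 3 the adjusted p was 0.0757, 0.0729 or 0.0616, and without KO replicate 2 the log2 fold change was 3.74. Dlk1 (ENSMUSG00000040856), the membrane protein Pref-1 that holds back fat cell formation, had 46, 2 and 3 reads in WT and 14, 271 and 48 in KO. WT replicate 1 lay within the KO range, and the difference did not pass the test (log2 fold change 2.60, adjusted p = 0.163). For Dlk1 single libraries decided the value: it was 5.27 without WT replicate 1, 0.78 without KO replicate 2, and 3.09 with an adjusted p of 0.0457 without KO replicate 1. Rian, a host of small nucleolar RNAs, had 3, 7 and 1 reads in WT and 9, 148 and 70 in KO, below the filter. Mirg, a microRNA host, and Rtl1, a retrotransposon-derived protein antisense to a microRNA cluster, had 1 to 11 reads in every library. The maternal RNAs Meg3 and Rian were highest in KO replicate 2, as was the paternal Dlk1. Of the wider list of imprinted genes below, Begain had 12, 6 and 5 reads in WT and 0, 0 and 1 in KO. Dio3 had 72, 0 and 1 reads in WT and 0, 4 and 0 in KO, and both were below the filter.

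**Figure D3:**
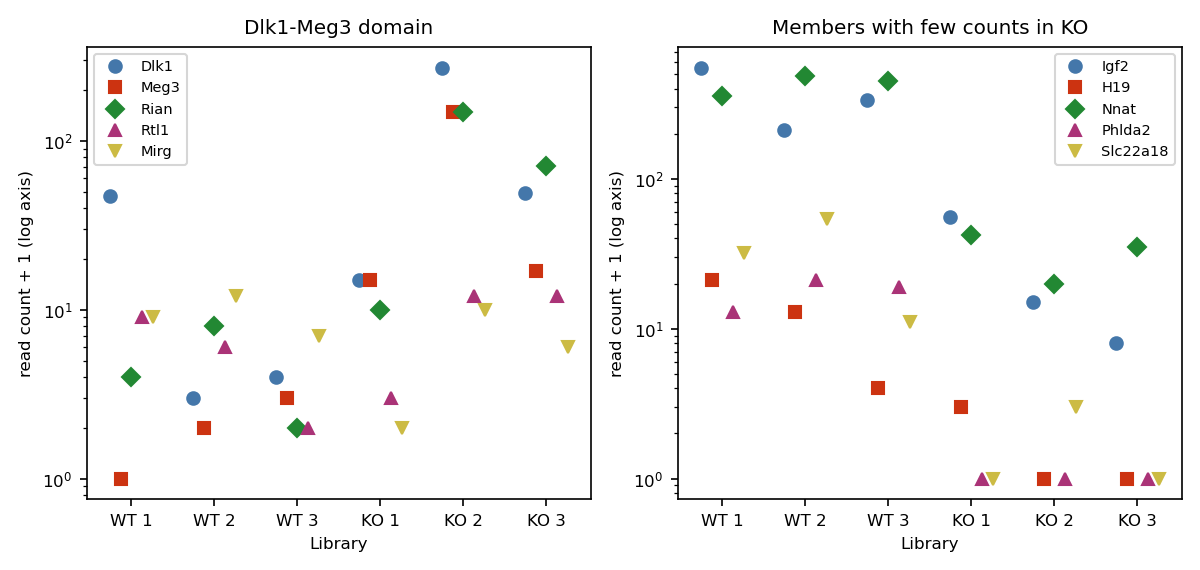
Read counts in each of the 6 libraries (plus 1, on a log axis) for the Dlk1-Meg3 domain and for 5 genes with few reads in KO. Meg3 reaches 148 and Dlk1 271 in KO replicate 2, while Phlda2 is at 0 in all 3 KO libraries.

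In the Peg10-Sgce domain on chromosome 6, a paternally expressed gene fell and a maternally expressed gene rose. Sgce (ENSMUSG00000004631), epsilon-sarcoglycan of the cell membrane, had 2318, 2150 and 2102 reads in WT and 638, 876 and 905 in KO. Both groups were narrow and far apart, and Sgce fell from 70.5 ± 2.68 to 24.9 ± 1.03 CPM (log2 fold change -1.50, SE 0.05, adjusted p = 0.000137). Peg10 (ENSMUSG00000092035), a retrotransposon-derived protein needed in placenta, starts beside Sgce on the other strand and had 7626, 3300 and 7334 reads in WT and 1101, 3819 and 3637 in KO. WT replicate 2 overlapped the KO range, and the difference did not pass (197 ± 80.9 and 84.5 ± 38.0 CPM, -1.22, SE 0.61, adjusted p = 0.0728). Without WT replicate 2 the adjusted p of Peg10 was 0.0443. Ppp1r9a (ENSMUSG00000032827), the actin-binding protein neurabin, had 79, 94 and 106 reads in WT and 165, 200 and 197 in KO. The groups did not overlap, and it rose from 3.01 ± 0.55 to 5.83 ± 0.43 CPM (0.95, SE 0.16, adjusted p = 0.0183). Ppp1r9a no longer passed once WT replicate 1 (adjusted p = 0.0743) or WT replicate 2 (0.0818) was dropped.

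In the Mest domain, also on chromosome 6, the maternally expressed gene rose and the paternally expressed one was not called. Copg2 (ENSMUSG00000025607), a subunit of the coatomer of Golgi transport, had 1632, 1536 and 1722 reads in WT and 3094, 2916 and 3117 in KO. It rose from 52.6 ± 5.06 to 95.8 ± 17.7 CPM without overlap of the groups (0.87, SE 0.17, adjusted p = 0.00589). Mest (ENSMUSG00000051855), a hydrolase-like protein that goes with fat cell enlargement, had 401, 304 and 469 reads in WT and 293, 405 and 232 in KO. The groups overlapped and the difference did not pass (-0.37, adjusted p = 0.37). The 3′ ends of both genes share 912 exon bases on opposite strands, 23.1% and 17.8% of their exon length.

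Neuronatin and its host gene both fell, although textbooks give them opposite parental copies. Nnat (ENSMUSG00000067786, chr2:157560078-157562522), a small membrane protein of the endoplasmic reticulum, had 354, 486 and 449 reads in WT and 41, 19 and 34 in KO. The groups were far apart, and Nnat fell from 13.9 ± 2.36 to 1.01 ± 0.494 CPM (log2 fold change -3.79, SE 0.44, adjusted p = 0.000481). Blcap (ENSMUSG00000067787), in whose intron Nnat lies, had 1173, 1343 and 1129 reads in WT and 446, 787 and 784 in KO. It fell from 39.1 ± 2.79 to 20.5 ± 3.37 CPM (-0.93, SE 0.15, adjusted p = 0.00455), with no library of one group within the range of the other. Neuron markers, since Nnat is abundant in brain, summed to 67.6 to 72.9 CPM in WT and 115 to 140 in KO, with Snap25 and Neurod1 at 0 in all libraries. Map2 rose (53.8 to 112 CPM, adjusted p = 0.00142) and set that sum, Tubb3 did not pass (adjusted p = 0.657), and Slc17a7 fell from 4.90 to 0.517 CPM (-3.26, adjusted p = 0.00111). Gad1 had 8, 4 and 7 reads in WT and 0, 0 and 1 in KO, and Syp had 8, 6 and 7 in WT and 1, 6 and 5 in KO. The list thus moved in both directions, and its part in the Nnat result was not tested.

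Slc38a4 showed the largest change among the tested genes with reads in every library. Slc38a4 (ENSMUSG00000022464, chr15:96994820-97055956), the amino acid transporter SNAT4, is paternally expressed and abundant in placenta and liver. It had 4866, 4143 and 4101 reads in WT and 64, 59 and 93 in KO. The lowest WT library was far above the highest KO library, and the level fell from 141 ± 11.5 to 2.23 ± 0.419 CPM, 63.0-fold (log2 fold change -5.98, SE 0.18, adjusted p = 7.87e-06). Impact (ENSMUSG00000024423), which restrains the amino acid sensor GCN2, had 2146, 2244 and 1724 reads in WT and 1370, 1151 and 1219 in KO. The groups did not overlap, and it fell from 65.4 ± 6.41 to 39.6 ± 10.3 CPM (-0.73, SE 0.22, adjusted p = 0.0263). Impact no longer passed once any of WT replicates 1, 2 and 3 was dropped (adjusted p = 0.0853, 0.0987 and 0.0542) or either of KO replicates 2 and 3 (0.0708 and 0.08).

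The listed genes of the other domains gave no call. Of the wider list of imprinted genes below, Mkrn3 (log2 fold change 1.27, adjusted p = 0.0107), Peg12 (2.60, adjusted p = 0.0236) and Ago2 (0.88, adjusted p = 0.0155) were higher in KO. In the Snrpn-Ube3a domain, Snrpn, which encodes the splicing protein SmN, had 32, 14 and 3 reads in WT and 47, 40 and 59 in KO. Its groups did not overlap, yet the test was not passed (log2 fold change 1.54, adjusted p = 0.105), and without WT replicate 1 the value was 2.45 (adjusted p = 0.0438). Ube3a, the ubiquitin ligase lost in Angelman syndrome, was at 61.1 ± 7.33 CPM in WT and 77.6 ± 0.846 in KO (0.35, adjusted p = 0.0652), and at 0.0312 without KO replicate 1. Necdin (Ndn) and Magel2, of the MAGE protein family, had 0 reads in all 6 libraries, which allows up to 3 counts in each. Zrsr1, a splicing factor retrogene, had 261, 286 and 330 reads in WT and 191, 224 and 142 in KO (-0.68, adjusted p = 0.102), and its adjusted p was 0.0286 without KO replicate 1. Its host Commd1, of copper transport, was not called (0.29, adjusted p = 0.318). Peg3, a zinc finger protein, had 93, 7 and 35 reads in WT and 1, 0 and 63 in KO, so that KO replicate 3 alone lay within the WT range (-1.24, adjusted p = 0.518). The value for Peg3 was -6.12 once that library was dropped (adjusted p = 0.0334). Usp29 and Zim1 of the same domain had 0 to 5 reads a library.

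Gnas, the stimulatory G protein alpha subunit that couples receptors to cyclic AMP, had 584, 479 and 409 reads in WT and 475, 402 and 439 in KO (-0.18, adjusted p = 0.558). Its counts do not separate the alternative transcripts of the locus, which differ in their imprint. Of its exon bases, 22.0% lie in exons of other genes, and how reads there were counted is not known. Nespas, antisense to that locus, had 2 to 10 reads. Mcts2, a translation factor retrogene inside H13, had 1024, 842 and 742 reads in WT and 479, 805 and 857 in KO (-0.36, adjusted p = 0.148), and H13, a signal peptide peptidase, was not called (0.06, adjusted p = 0.797). Peg13, a noncoding RNA inside Trappc9, had 208, 194 and 171 reads in WT and 140, 280 and 253 in KO (0.15, adjusted p = 0.64), and Trappc9, a trafficking subunit, was not called (-0.04, adjusted p = 0.77). Nap1l5 had 1 to 8 reads and Zdbf2 0 to 2.

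A ratio within a library does not depend on how libraries are scaled, so the paternal-to-maternal log2 ratio of counts was taken for all 9 pairs of tested genes of opposite assignment in a domain, each with over 20 reads in every library. The 9 pairs, chosen after the values were seen, come from 7 domains and some share a gene. Nnat over Blcap was left out by that minimum, with 19 Nnat reads in KO replicate 2. The smallest two-sided p of an exact permutation test with 3 against 3 libraries is 0.1, and 8 pairs reached it, their groups not overlapping. Single genes did not overlap in 49.6% of all those tested, and no such share was computed for pairs of other genes, so the 8 of 9 is a description only. The ratio was higher in KO for 3 pairs led by noncoding RNAs, by 1.27 for Airn over Igf2r, 1.31 for Kcnq1ot1 over Cd81 and 1.72 for Kcnq1ot1 over Tssc4. It was lower in KO for 5 pairs: -2.47 for Sgce over Ppp1r9a, -2.21 for Peg10 over Ppp1r9a, -1.25 for Mest over Copg2, -1.02 for Zrsr1 over Commd1 and -0.41 for Mcts2 over H13. Peg13 over Trappc9 overlapped between the groups (0.17, exact permutation p = 0.4). A ratio shows unequal change and not which of the 2 genes moved.

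Corrected for gene length, the order of the genes' levels shifted. Cd81 was the highest in both groups, at 60.7 CPM per kilobase of exon (RPKM) in WT and 66.3 in KO. In WT it was followed by Slc38a4 (33.0), Mcts2 (30.6), Peg10 (29.6), Tssc4 (19.9) and Grb10 (14.5). In KO, Grb10 (27.1), Mcts2 (23.8), Copg2 (18.7) and Tssc4 (16.5) followed. Slc38a4 dropped from rank 2 to rank 24, at 0.523 RPKM. Of the 45 genes, 21 had over 100 reads in every library.

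**Figure D4:**
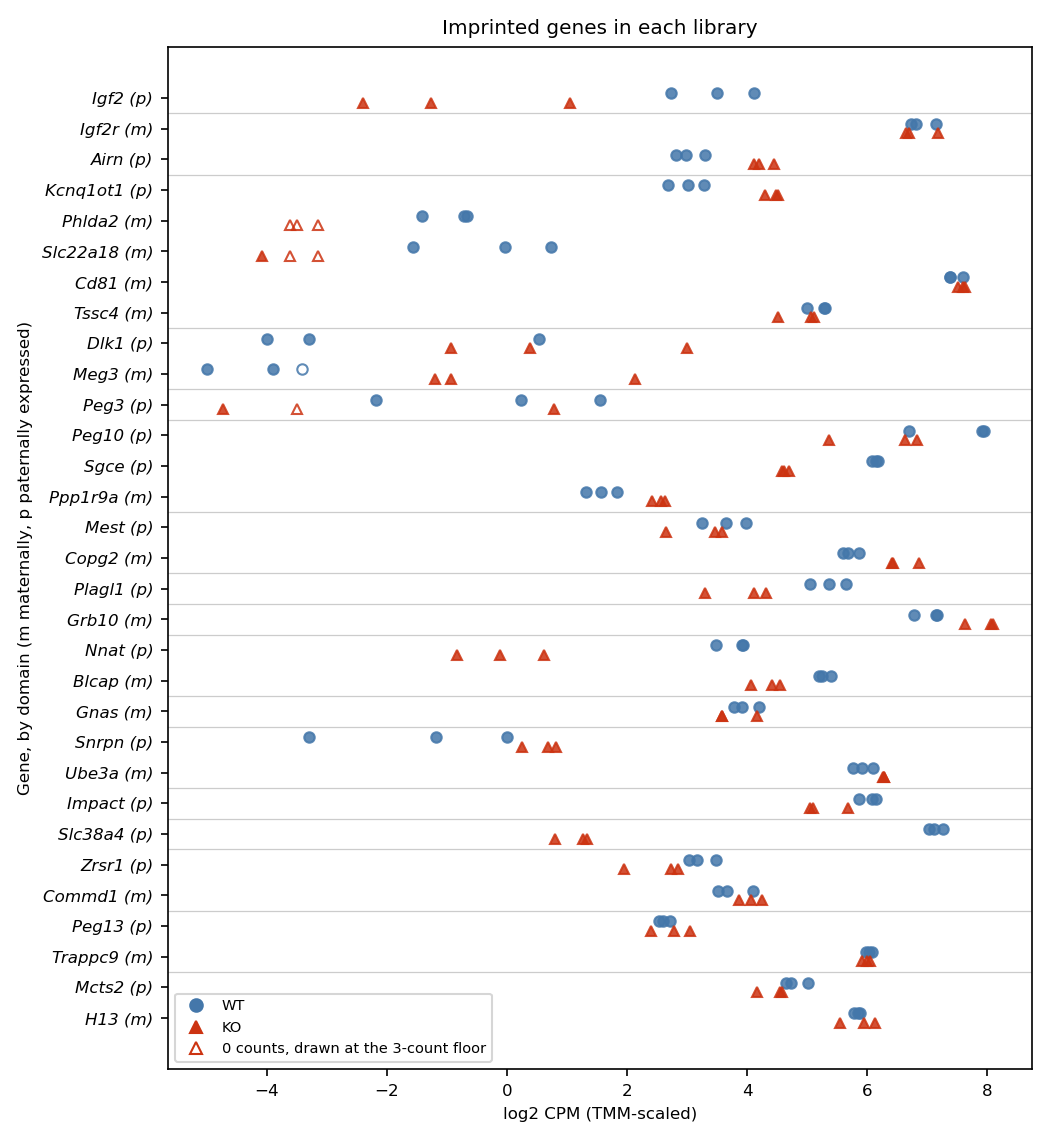
Log2 CPM of the tested imprinted genes in each of the 6 libraries, ordered by domain, with libraries at 0 reads drawn open at the 3-count floor. Slc38a4 sits at 141 CPM on average in WT and 2.23 in KO, whereas the groups overlap for Cd81 and Igf2r.

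Among 41 further imprinted genes, 39 were found in the files, and 8 of the 23 tested were higher, 1 was lower and 14 did not pass, against 13.8% higher and 14.5% lower over all tested genes. The 4 of smallest p among those higher were Pon3, a lipoprotein-bound lactonase (2.03, adjusted p = 0.000237), Asb4, a ubiquitin ligase adaptor (3.30, adjusted p = 0.00157), Sfmbt2, a polycomb protein (2.28, adjusted p = 0.00256), and Qpct, a glutaminyl cyclase (1.69, adjusted p = 0.00425). Pon3 and Asb4 lie beyond Ppp1r9a in the Peg10-Sgce cluster, and their neighbour Pon2 did not pass (0.43, adjusted p = 0.179). The gene that was lower is Cdkn1c. Leaving out WT replicate 1, 2 or 3 left 4, 5 and 5 higher. Over all genes the same fits gave 1225, 1003 and 1294 higher, against 2074 in the main fit. Of 34 genes that set, keep or erase imprints, 30 were tested, 4 were higher, 2 lower and 24 did not pass. That is 20% called (13.3% higher, 6.67% lower), no more than the 28.3% of all tested genes. Dnmt1, the methyltransferase that copies methylation at cell division, fell from 411 ± 18.8 to 271 ± 12.2 CPM (-0.60, adjusted p = 0.00609), and Kdm1b, a histone demethylase of the egg, fell (-0.64, adjusted p = 0.00959). Tet2, which oxidises methylcytosine (1.15, adjusted p = 0.0048), Dnmt3a, a de novo methyltransferase (0.85, adjusted p = 0.0142), Zfp57, which binds methylated imprints (0.57, adjusted p = 0.0194), and the cohesin subunit Rad21 (0.61, adjusted p = 0.0324) rose. With WT replicate 1 or WT replicate 2 left out, 1 of the 34 was higher, where the count over all genes was 1225 and 1003.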

How the data were processed

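RNA-seq counts per gene of 3 WT and 3 KO libraries were used, with samples grouped by the genotype in the labels. The authors deposited raw read counts per Ensembl gene, and per the submitters' processing notes TopHat2 2.1.0, HTSeq and DESeq2 were used with build GRCm38.p4. Per the labels' protocols, libraries were made with the TruSeq RNA kit v2, and the strand setting of counting is not given in the sources used here. Identifiers were matched to a GRCm38 annotation (46091 of 46603 matched, 512 not).

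The fit ran over all genes in edgeR 4.0.16 (R 4.3.3): TMM scaling, low counts removed with filterByExpr, the quasi-likelihood F test, two-sided, Benjamini-Hochberg adjustment over 15009 genes, calls at an adjusted p under 0.05. The script was tested on simulated counts. Standard errors (SE) were computed from log2 CPM of the libraries, for the difference of group means (prior count 0.125). Intervals and the floor of 3 counts per library cover counting error only. RPKM uses merged exon length. Alternatives were other scalings, DESeq2 1.42.0, limma-voom 3.58.1, other filters, a replicate block and each library left out. The members and lists were chosen with earlier results of these data known. All members are accounted for. Per-library values are given for called genes and their domain partners. Of each further list the called genes of smallest p are given, up to 4 a direction, besides genes named with a domain. Replicate numbers are not said to pair the samples, and the main fit left them out.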

Additional observations from a re-analysis of the deposited data

How the results depend on the processing

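Of the 15 called imprinted genes, 12 were called under every alternative that gave a value, 3 (Meg3, Ppp1r9a and Impact) lost the call under 1 or more, and 0 changed sign. Uncalled genes near 0 changed sign: Cd81 (-0.076), Peg13 (-0.039) and H13 (-0.13) under library totals, and, with 1 library left out, Igf2r (-0.24 to 0.091), Peg13 (-0.0094 to 0.31) and H13 (-0.071 to 0.21). Library totals gave 1351 genes higher and 3347 lower over all genes, 2 further imprinted genes lower, and 2 imprint factors higher and 4 lower. Further imprinted genes lower numbered 2 under DESeq2 and 2 without a filter. Maternally expressed genes lower numbered 5 without a filter and 1 with a minimum of 1 CPM in 3 libraries. Peg10 passed under DESeq2 (0.0165) and without a filter (0.0166), Ube3a under DESeq2 (0.0325) and Zrsr1 under library totals (0.0413). Leaving out 1 library at a time gave 1003 to 3075 genes higher and 1295 to 3462 lower over all genes, 2 to 6 maternally expressed genes higher and 3 to 5 lower, 4 to 11 further imprinted genes higher and 1 to 2 lower, and 1 to 5 imprint factors higher and 2 to 3 lower. Slc22a18 stood at -7.97 without KO replicate 2 and Phlda2 at -5.11 in limma-voom. Deviations of same-numbered samples correlated at -0.08, 0.03 and -0.10. With 3 samples a group this cannot settle whether the numbers pair the samples, and the labels do not say so. With the replicate block, 5 imprinted genes were higher and 9 lower, Ppp1r9a lost its call (adjusted p = 0.0653), and over all genes 1446 were higher and 1599 lower. The cause of these moves was not tested. Low counts left 14 imprinted genes out of the test, and without the filter 7 were higher and 12 lower.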

Other observations

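The nearest tested protein-coding neighbours of the called imprinted genes, leaving out genes of the imprinted lists, were looked up after the values were seen. Of these 20 neighbours 8 were called (40%, 4 higher and 4 lower) and 12 were not, against 28.3% of all tested genes. Some of those called lie far off: Sec61g 4461.8 kb from Grb10, Ppp2r5c 875.4 kb from Meg3 and Zfp521 694.1 kb from Impact. Src, the membrane tyrosine kinase, and Ctnnbl1, a splicing-linked protein, flank Nnat and Blcap and both fell (log2 fold changes -0.86 and -0.73, adjusted p = 0.005 and 0.004). Amigo2, a cell adhesion protein 188.2 kb from Slc38a4, fell from 10.9 to 1.04 CPM (-3.37). Slc38a2, an amino acid transporter 295.1 kb from Slc38a4 on the other side, was not called. In the opposite direction, Zfp521, 694.1 kb from lowered Impact, rose from 0.0322 to 2.63 CPM (adjusted p = 0.000658). Col1a2, 132.8 kb from lowered Sgce, rose from 0.3 to 6.00 CPM (adjusted p = 0.00035). Of 30 pairs of a called imprinted gene and a neighbour, 9 were both called in the same direction and 2 in opposite directions. The pairs share genes: Src and Ctnnbl1 each count for both Nnat and Blcap. Col1a2 counts as the same direction for Ppp1r9a and as the opposite for Sgce. No such share was computed for other genes, so these counts are a description only. Mrpl23 and Cars, the nearest such neighbours on the outer sides of Igf2 and Phlda2, were not called.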
